A study of Homo sapiens with 16 samples.

Results

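Transcript levels of 10 genes of Wnt signalling were followed in 2 human melanoma cell lines. They are the ligand WNT5A, the receptors ROR1 and ROR2, the secreted regulators DKK1 and DKK3, the nuclear factors LEF1 and TCF7, the feedback gene AXIN2 and the ubiquitin ligases RNF43 and ZNRF3. The genes were chosen by symbol, and each symbol matched 1 Ensembl identifier among the 60676 in the count tables of both lines. The study asked what follows when homocysteine takes the place of methionine in the medium of melanoma cells. Total RNA was sequenced from 8 libraries of A101D, a line labelled as dependent on methionine, and 8 of MeWo, a line labelled as not dependent on it, both grown in methionine-free base medium with dialyzed serum. Per the culture protocol, cells received either methionine, as the control, or homocysteine in its place, each at 200 µM, and no label ties a library to either. The line was therefore the only tested grouping, with 1 line of each kind, so that a difference between A101D and MeWo cannot be told apart from any other difference between those lines. Values are also given apart for replicates 1 to 4 and 5 to 8 of each line, as description only, because the labels do not say what the numbers stand for. The labels also do not say whether libraries came from separate cultures, so p-values measure only the spread between these libraries.

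Wnt proteins are secreted lipid-modified ligands that bind Frizzled receptors. In the β-catenin branch, the co-receptors LRP5 and LRP6 pass the signal on, a cytoplasmic complex built on axin stops degrading β-catenin, and β-catenin acts with nuclear TCF/LEF factors to switch on targets, among them feedback inhibitors. WNT5A typically signals through the receptor kinases ROR1 and ROR2 without β-catenin, and in melanoma it is known for its link with cell motility and with states of low pigment gene expression.

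Total counts ran from 28910881 to 38961862 per library. CPM are counts divided by the library's size, in parts per 1000000, after the sizes were scaled by TMM (trimmed mean of M-values). The melanocyte markers were present in both lines, and all 7 of 7 passed the test between them, 5 higher and 2 lower in MeWo. Over all genes tested, 79.0% passed, 38.6% higher and 40.4% lower, so this count is not read as particular to the markers. Their summed level ran from 2517 to 3449 CPM in A101D libraries and from 8189 to 9002 CPM in those of MeWo. None of the 7 was at 0 in any library. PMEL made up most of the MeWo sum, with a mean of 6642 CPM there and 223 CPM in A101D. DCT and S100B were the lower ones, at 1497 and 610 CPM in A101D and 504 and 131 CPM in MeWo. The part of these markers in the differences between the lines was not tested. Among MeWo libraries, replicate 2 stood apart with 34471 genes that had a count, where the others had 30066 to 31433. Leaving it out kept each of the 9 tested genes on the same side of the threshold.

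Of the 10 genes, 3 were picked by their levels: WNT5A is nearly absent from one line, and DKK1 and RNF43 differ between replicates of A101D. Sequences before a transcription start of these 3 are shown first. Each is the 250 bases before a RefSeq transcription start (GRCh38.p14), 5′ to 3′ on the gene's strand, and RNF43 has 2 starts. Upstream and downstream give the order of a gene's starts in RefSeq only. The WNT5A window lies inside the gene as annotated in GENCODE v29, which reaches 55490539, and so does the downstream window of RNF43. Capitals mark the letters CTTTG, the core of the sequence that TCF/LEF factors bind, or CAAAG, the same letters on the other strand. No other motif was searched.

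DKK1, chr10:52314031-52314280, plus strand: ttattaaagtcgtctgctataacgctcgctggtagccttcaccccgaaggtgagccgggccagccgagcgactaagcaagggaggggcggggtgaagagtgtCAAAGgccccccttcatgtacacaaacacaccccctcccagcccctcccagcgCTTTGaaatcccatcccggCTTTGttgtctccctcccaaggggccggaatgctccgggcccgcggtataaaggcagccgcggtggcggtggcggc
RNF43, upstream start, chr17:58417535-58417784, minus strand: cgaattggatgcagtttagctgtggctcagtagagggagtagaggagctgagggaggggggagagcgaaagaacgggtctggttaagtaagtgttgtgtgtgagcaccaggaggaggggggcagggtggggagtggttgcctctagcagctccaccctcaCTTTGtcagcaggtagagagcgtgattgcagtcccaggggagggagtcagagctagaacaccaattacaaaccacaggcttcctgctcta
RNF43, downstream start, chr17:58402722-58402971, minus strand: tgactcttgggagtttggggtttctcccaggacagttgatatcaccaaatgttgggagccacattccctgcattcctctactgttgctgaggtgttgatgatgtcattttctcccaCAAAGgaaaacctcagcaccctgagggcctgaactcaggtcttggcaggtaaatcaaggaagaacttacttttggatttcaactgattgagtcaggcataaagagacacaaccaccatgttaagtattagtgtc
WNT5A, upstream start, chr3:55487307-55487556, minus strand: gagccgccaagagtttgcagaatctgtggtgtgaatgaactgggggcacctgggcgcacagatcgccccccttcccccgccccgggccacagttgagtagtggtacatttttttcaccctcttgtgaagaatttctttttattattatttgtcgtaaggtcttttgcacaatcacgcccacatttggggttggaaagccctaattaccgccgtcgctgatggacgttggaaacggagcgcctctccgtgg

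The DKK1 window held 3 matches, a count that 2.83% of all 35116 RefSeq windows of this length reach. Each RNF43 window held 1, and 42.1% of all windows hold at least 1. The WNT5A window had none of these letters, nor did the window of its second start. Among genes whose windows are not printed, ROR1 had 0 matches, ROR2 and LEF1 had 1 each, and the windows of TCF7 had 0 and 2. CpG dinucleotides numbered 18 in the DKK1 window, 14 in that of WNT5A, and 4 and 0 in those of RNF43, beside a median of 11 over all windows. A match describes the letters and is not evidence of a bound site. Of the 10 genes, 7 had a window in the RefSeq table, and DKK3, AXIN2 and ZNRF3 did not.

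All 9 genes that could be tested differed between the lines in limma (threshold of 0.05 on the Benjamini-Hochberg adjusted p over 19247 genes): AXIN2, TCF7 and DKK1 were higher in MeWo, and WNT5A, DKK3, RNF43, ZNRF3, ROR1 and LEF1 were lower. These counts sit on a high background, since 79.0% of all genes tested passed, 38.6% higher and 40.4% lower in MeWo. ROR2 had too few counts to be tested. WNT5A and RNF43 passed the filter on low counts only through A101D, since their mean in MeWo was under the filter's level of 0.298 CPM, so they had to differ between the lines. In 9 of the 9 the libraries of one line all lay above those of the other, as did 57.7% of all genes tested. The median log2 fold change, MeWo minus A101D, was -0.74 over the 9 genes and -0.02 over all genes tested.

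**Figure D1:**
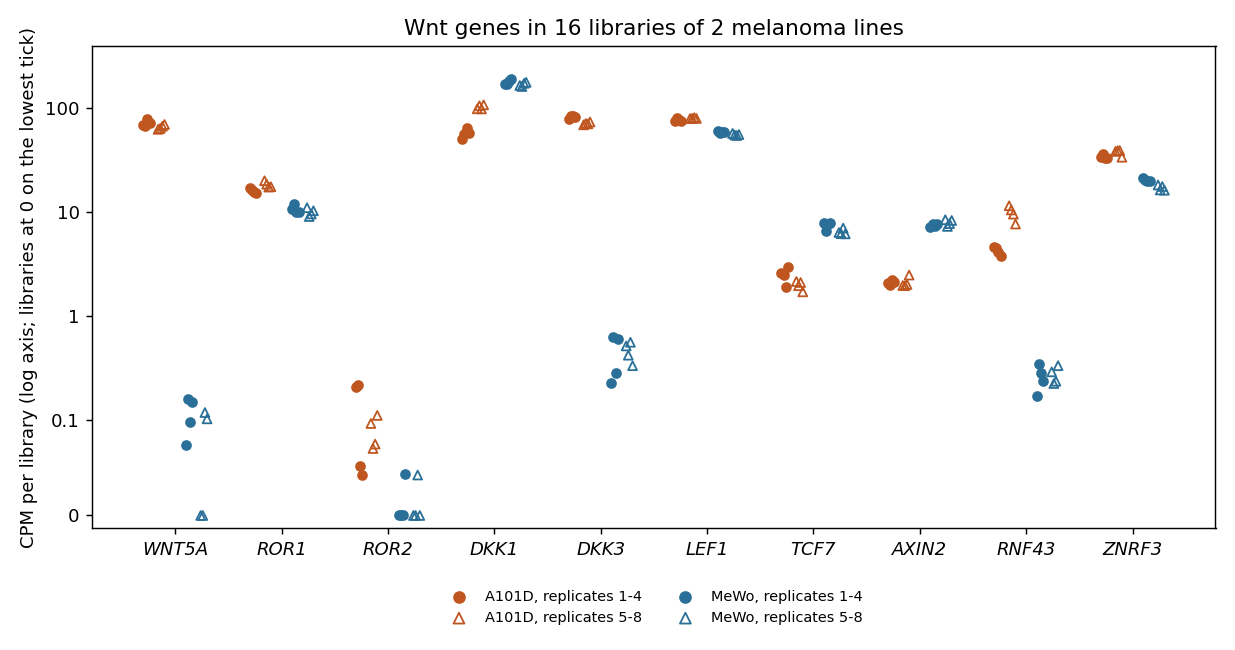
Each point is 1 library; the vertical axis is CPM on a log scale, with libraries at 0 on the lowest tick, and the genes are ordered from ligand and receptors to secreted regulators, nuclear factors and feedback genes. WNT5A, DKK3 and RNF43 lie at 3.77 CPM or above in every A101D library and at 0.631 CPM or below in every MeWo library, and DKK1 is the only one of the 10 above 100 CPM in every MeWo library.

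WNT5A was an abundant transcript in A101D and close to absent in MeWo. The gene (ENSG00000114251) lies on chromosome 3, from 55465715 to 55490539, on the minus strand in GENCODE v29 (GRCh38). Its lowest, median and highest levels were 62.9, 68.4 and 78.8 CPM in A101D. In MeWo they were 0, 0.0987 and 0.158 CPM, that is 0 to 5 counts per library, and no library of one line came near the other. The summed counts were 18767 in A101D and 23 in MeWo, a ratio of 813 (exact 95% interval 541 to 1282, which covers counting error only). The fit gave a log2 fold change of -9.89 ± 0.38 (SE; adjusted p 8.22e-14, limma). With replicates 1 to 4 of each line alone it was -9.18, and with replicates 5 to 8 alone -10.58, where 2 of 4 MeWo libraries had no count.

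Of the receptors ROR1 and ROR2, only ROR1 had enough counts to be tested. It was present in both lines at levels that differed less than those of WNT5A. ROR1 (ENSG00000185483) spans 63774022 to 64181498 on the plus strand of chromosome 1. It ran from 15.2 to 20.1 CPM with a median of 17.3 in A101D, and from 9.09 to 11.9 CPM with a median of 10.2 in MeWo. The lowest A101D library thus stood above the highest MeWo library, and ROR1 was lower in MeWo by 0.74 ± 0.07 on the log2 scale (SE; adjusted p 1.42e-08, limma), or 1.67-fold higher in A101D. Its relative ROR2 (ENSG00000169071; chromosome 9, 91563091 to 91950162, minus strand) was at the limit of detection. ROR2 had 28 counts over the 8 A101D libraries and 2 over the 8 MeWo libraries, a ratio of 13.9 (exact 95% interval 3.52 to 121). Of the 28, replicates 1 and 2 held 8 and 7, and the other A101D libraries had 1 to 4 counts each. Neither receptor gene nor WNT5A shares exon bases with another annotated gene.

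Of the secreted regulators, DKK1 was high in both lines and DKK3 in A101D alone. DKK1 binds LRP5 and LRP6 and blocks the β-catenin branch, and it is itself a Wnt target; DKK3 is a divergent relative that does not bind LRP6 in the way DKK1 does. DKK1 (ENSG00000107984; chromosome 10, 52314296 to 52318042, plus strand) ran from 50.8 to 108 CPM with a median of 82.2 in A101D, and from 163 to 191 CPM with a median of 174 in MeWo. Every MeWo library was above every A101D library, and the log2 fold change was 1.18 ± 0.15 (SE; adjusted p 1.34e-06, limma). The A101D libraries fell into separate ranges by replicate number, described further on, and the log2 fold change was 1.67 with replicates 1 to 4 alone and 0.73 with replicates 5 to 8 alone. PRKG1-AS1, on the opposite strand, shares 212 exon bases with DKK1 and had at most 3.42 CPM in any A101D library and 1.48 CPM in any MeWo library.

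DKK3 (ENSG00000050165; chromosome 11, 11963106 to 12009769, minus strand) ran from 69.5 to 83.9 CPM with a median of 77.0 in A101D. In MeWo it ran from 0.228 to 0.631 CPM with a median of 0.468, that is 8 to 20 counts per library. DKK3 was thus detected in each MeWo library, at 177-fold less than in A101D by the fit (log2 fold change -7.47 ± 0.17 SE; adjusted p 9.39e-17, limma). No other annotated gene shares its exon bases.

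The TCF/LEF factors went in opposite directions. LEF1 (ENSG00000138795; chromosome 4, 108047545 to 108168956, minus strand) was the more abundant, with 75.8 to 81.6 CPM and a median of 79.9 in A101D, and 54.9 to 61.0 CPM with a median of 57.6 in MeWo. Its spread within a line was narrow (79.1 ± 2.26 and 57.6 ± 2.11 CPM, SD, n = 8 per line), and the lines did not overlap. LEF1 was lower in MeWo by 0.46 ± 0.03 on the log2 scale, the smallest difference of the 9 genes (SE; adjusted p 5.20e-10, limma). TCF7 (ENSG00000081059; chromosome 5, 134114711 to 134151865, plus strand) ran from 1.71 to 2.94 CPM with a median of 2.13 in A101D and from 6.19 to 7.95 CPM with a median of 6.83 in MeWo. It was 3.14-fold higher in MeWo (log2 fold change 1.65 ± 0.11 SE; adjusted p 1.22e-10, limma). SKP1, on the opposite strand, shares 210 exon bases with TCF7 and was also higher in MeWo, at 182 ± 5.65 CPM against 112 ± 3.08 CPM (SD, n = 8 per line). The strand setting of the counting is not known, so reads of that stretch cannot be told apart between SKP1 and TCF7. LEF1-AS1 shares 279 bases with LEF1 and stayed at or below 1.72 CPM in all libraries. TCF7L1 and TCF7L2, the other TCF/LEF genes, did not pass the threshold, with log2 fold changes of 0.09 and 0.01. TCF7L2 had means of 8.91 CPM in A101D and 8.90 CPM in MeWo, and TCF7L1 of 2.35 and 2.43 CPM.

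AXIN2, RNF43 and ZNRF3 are widely used readouts of the β-catenin branch, and they did not move together between the lines. AXIN2 is a scaffold of the complex that degrades β-catenin, and RNF43 and ZNRF3 are membrane ligases that remove Frizzled receptors from the cell surface. AXIN2 (ENSG00000168646; chromosome 17, 65528563 to 65561647, minus strand) ran from 1.96 to 2.48 CPM with a median of 2.04 in A101D, and from 7.28 to 8.48 CPM with a median of 7.70 in MeWo. It was 3.67-fold higher in MeWo (log2 fold change 1.88 ± 0.07 SE; adjusted p 3.01e-14, limma). AC004805.1 shares 1316 exon bases with AXIN2 on the same strand and held 2 counts in all of A101D and 4 in all of MeWo.

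Both ligases were lower in MeWo. RNF43 (ENSG00000108375; chromosome 17, 58352500 to 58417595, minus strand) ran from 3.77 to 11.5 CPM with a median of 6.16 in A101D and from 0.171 to 0.347 CPM with a median of 0.262 in MeWo, that is 6 to 13 counts per MeWo library. The summed counts were 1942 and 72, a ratio of 26.9 (exact 95% interval 21.2 to 34.5), and the log2 fold change was -4.56 ± 0.43 (SE; adjusted p 2.22e-08, limma). It was -3.98 with replicates 1 to 4 alone and -5.10 with replicates 5 to 8 alone. AC004687.2 shares 4326 of the 7505 exon bases of RNF43 on the same strand, so that reads there could be given to either gene or to neither. AC004687.2 had 0.460 ± 0.112 CPM in A101D and 0.255 ± 0.117 CPM in MeWo (SD, n = 8 per line). SUPT4H1 and TSPOAP1-AS1 share 143 and 1521 exon bases with RNF43 and had at most 3.65 and 1.03 CPM in any A101D library.

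ZNRF3 (ENSG00000183579; chromosome 22, 28883592 to 29057487, plus strand) ran from 33.2 to 39.3 CPM with a median of 35.1 in A101D, and from 16.3 to 21.2 CPM with a median of 19.1 in MeWo. It was 1.92-fold higher in A101D (log2 fold change -0.94 ± 0.07 SE; adjusted p 3.72e-10, limma). The lines did not overlap, and no other annotated gene shares its exon bases.

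Levels of different genes were set side by side as CPM per kilobase of exon. Exon bases shared with other genes were kept in the lengths, among them 4326 of the 7505 of RNF43. How reads there were counted is not known, so the level and place of RNF43 are less certain. In A101D the order was DKK1 (36.5 ± 11.2), DKK3 (15.2 ± 1.23), LEF1 (14.8 ± 0.421), WNT5A (9.33 ± 0.669), ZNRF3 (5.16 ± 0.384), ROR1 (2.57 ± 0.237), RNF43 (0.938 ± 0.424), AXIN2 (0.402 ± 0.0334), TCF7 (0.222 ± 0.0405) and ROR2 (0.0173 ± 0.0128; all SD, n = 8). DKK3 and LEF1 overlapped there, and no other neighbours in that order did. In MeWo the order was DKK1 (79.2 ± 4.10), LEF1 (10.7 ± 0.394), ZNRF3 (2.7005 ± 0.274), ROR1 (1.54 ± 0.129), AXIN2 (1.48 ± 0.0878), TCF7 (0.695 ± 0.0746), DKK3 (0.0882 ± 0.03002), RNF43 (0.0354 ± 0.00785), WNT5A (0.0115 ± 0.00826) and ROR2 (0.00127 ± 0.00236; all SD, n = 8). The overlapping neighbours in MeWo were ROR1 and AXIN2, DKK3 and RNF43, and WNT5A and ROR2. DKK1 thus led in both lines, while WNT5A went from the fourth place to the ninth.

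The wider pathway was read from 105 genes in lists by role, which hold the 10 genes above. Of these, 76 were tested, 26 were higher and 39 lower in MeWo, and 11 did not pass, with a median log2 fold change of -0.28 beside -0.02 over all genes. Most genes of any kind passed (79.0%, with 38.6% higher and 40.4% lower), so these counts are read beside those shares and not as particular to the pathway. For 10 of the 76, 1 line had a mean under the filter's level and the call was fixed by the filter: WNT5A, WNT5B, WNT10B, FZD8, RNF43, SOSTDC1, TLE2, APCDD1 and PRICKLE2, which passed only through A101D, and DKK2, which passed only through MeWo. Of all 19247 genes, 1812 passed only through A101D and 989 only through MeWo. Of the 19 ligand genes, 7 were tested, 2 were higher and 4 lower. WNT5B, a close relative of WNT5A, went the same way, with 2495 counts in A101D and 14 in MeWo, a ratio of 177 (exact 95% interval 106 to 325), while WNT9A had 5.20 ± 0.828 CPM in MeWo and 0.352 ± 0.115 CPM in A101D (SD, n = 8 per line). WNT3 was 2.05-fold higher in MeWo. WNT11 was not tested, with 1 count in A101D and 40 in MeWo, a ratio of 40.2 (exact 95% interval 6.81 to 1626). Of the genes needed to secrete Wnt proteins, WLS was lower in MeWo (log2 fold change -0.70) and PORCN higher (0.46).

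**Figure D2:**
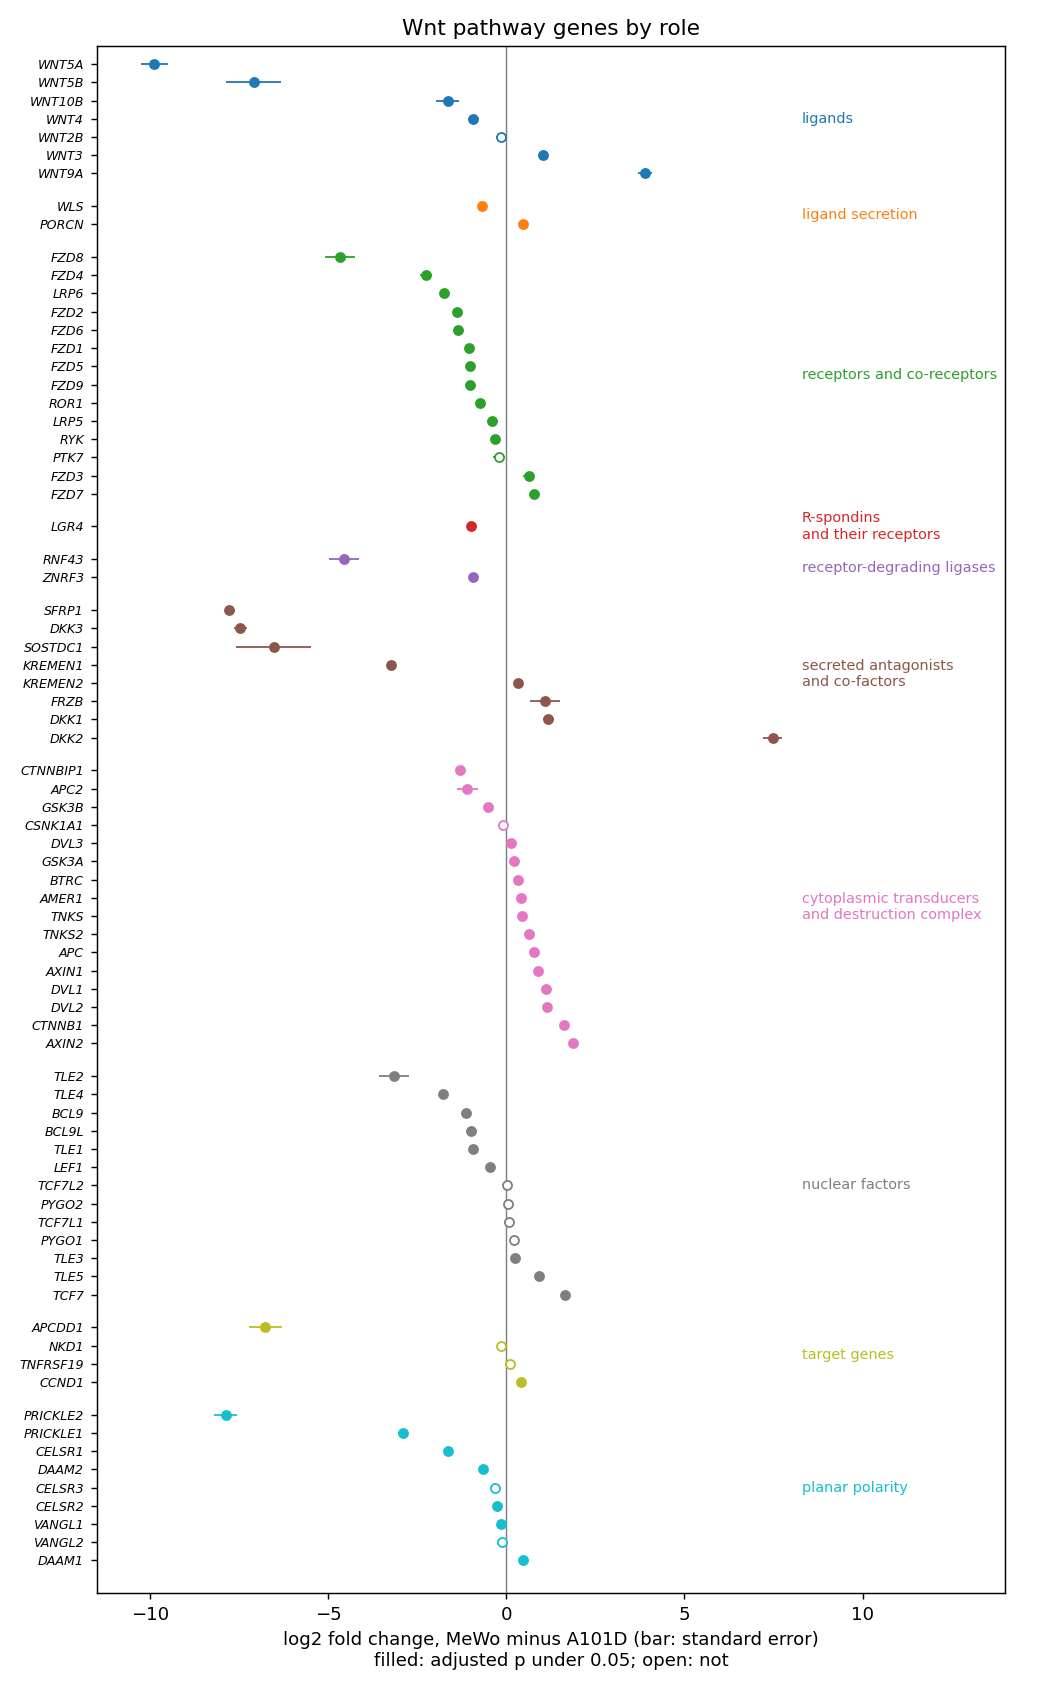
Each point is the log2 fold change of 1 tested gene, MeWo minus A101D, with its standard error, grouped by role and drawn once, in the first list that holds it; filled points passed the adjusted p threshold and open points did not. Most receptors lie to the left of 0 and most cytoplasmic transducers to the right, with WNT5A at -9.89 and DKK2 at 7.48 as the extremes.

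Of 14 receptor genes tested, 11 were lower in MeWo and 2 higher, beside 40.4% lower and 38.6% higher over all genes, with a median log2 fold change of -1.01. The Frizzled receptor FZD8 had 4.52 ± 1.48 CPM in A101D and 0.193 ± 0.119 CPM in MeWo, FZD4 had 29.1 ± 8.06 and 5.96 ± 0.329 CPM, and the co-receptor LRP6 had 128 ± 19.8 and 38.1 ± 2.26 CPM (SD, n = 8 per line). FZD7 and FZD3 were the receptors higher in MeWo, by 1.70-fold and 1.55-fold. Of 7 genes for R-spondins and their receptors, which counter RNF43 and ZNRF3, only LGR4 had enough counts to be tested, and it was lower in MeWo (log2 fold change -0.998 ± 0.08 SE; adjusted p 2.99e-09, limma).

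Of 8 secreted antagonists and co-factors tested, 4 were higher in MeWo and 4 lower, beside 38.6% higher and 40.4% lower over all genes. SFRP1, which binds Wnt ligands, had 248 ± 13.5 CPM in A101D and 1.14 ± 0.190 CPM in MeWo (SD, n = 8 per line). DKK2 went the other way, with 2 counts in A101D and 879 in MeWo, a ratio of 441 (exact 95% interval 122 to 3650). DKK1 and DKK3 were the other genes of this list that the naming rule took.

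Of 16 genes of cytoplasmic transducers and the destruction complex tested, 12 were higher in MeWo and 3 lower, beside 38.6% higher and 40.4% lower over all genes, with a median log2 fold change of 0.43. CTNNB1, the gene of β-catenin, had 506 ± 27.1 CPM in A101D and 1560 ± 47.9 CPM in MeWo (SD, n = 8 per line), a log2 fold change of 1.62 ± 0.04 (SE; adjusted p 4.64e-17, limma). After AXIN2 it had the highest log2 fold change of the list. CTNNBIP1, an inhibitor that binds β-catenin, and APC2 were lower in MeWo, by 1.31 and 1.09 on the log2 scale. Of 13 nuclear factors tested, 3 were higher and 6 lower, beside 38.6% higher and 40.4% lower over all genes. Among the lower were the co-repressors TLE2 (155 counts in A101D and 21 in MeWo) and TLE4 (log2 fold change -1.78), while TLE5 was 1.88-fold higher in MeWo.

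Of 10 target genes tested, 4 were higher in MeWo, 4 lower and 2 not past the threshold, with a median log2 fold change of -0.03. That split is near the shares over all genes, 38.6% higher and 40.4% lower, and is not read as particular to the targets. AXIN2, TCF7 and DKK1 were among the higher, and LEF1, ZNRF3 and RNF43 among the lower. APCDD1, a target that encodes a membrane inhibitor of Wnt signalling, had 2337 counts in A101D and 20 in MeWo, a ratio of 116 (exact 95% interval 75.2 to 191). Of 9 genes of planar polarity, the β-catenin-independent branch that orients cells in a sheet, 6 were lower and 1 higher. Over all genes, 40.4% were lower and 38.6% higher. PRICKLE2 had 24.5 ± 1.31 CPM in A101D and 0.118 ± 0.0721 CPM in MeWo, PRICKLE1 had 14.8 ± 2.58 and 1.95 ± 0.269 CPM, and DAAM1, the 1 that was higher, had 26.5 ± 3.50 and 36.3 ± 1.34 CPM (SD, n = 8 per line).

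Within A101D, DKK1 and RNF43, whose upstream windows are printed above, had the largest ratios between replicates 5 to 8 and 1 to 4 of the 9 tested genes. DKK1 was at 50.8, 57.2, 65.5 and 57.4 CPM in replicates 1 to 4 and at 99.1, 106, 98.9 and 108 CPM in replicates 5 to 8. The ranges lie far apart, with means in a ratio of 1.79. RNF43 was at 4.62, 4.50, 4.10 and 3.77 CPM in replicates 1 to 4 and at 11.5, 10.5, 9.59 and 7.70 CPM in replicates 5 to 8, a ratio of means of 2.32. In MeWo neither gene showed such a gap: DKK1 was at 170, 174, 183 and 191 CPM in replicates 1 to 4 and at 166, 163, 174 and 178 CPM in replicates 5 to 8. RNF43 there was at 0.171 to 0.347 CPM and 0.224 to 0.332 CPM, so the ranges overlapped in that line for both genes.

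ROR1 was also higher in A101D replicates 5 to 8, at 20.1, 18.6, 17.5 and 17.6 CPM against 17.0, 16.4, 15.7 and 15.2 CPM, a narrow gap with a ratio of means of 1.15. DKK3 was lower there, at 69.5, 71.5, 70.9 and 74.1 CPM against 79.9, 83.9, 83.8 and 83.0 CPM. The ranges of the other A101D genes overlapped, AXIN2 at 2.09 ± 0.0884 and 2.11 ± 0.252 CPM, LEF1 at 77.9 ± 2.68 and 80.3 ± 0.792 CPM, TCF7 at 2.49 ± 0.424 and 1.98 ± 0.199 CPM, WNT5A at 72.0 ± 4.93 and 66.1 ± 3.21 CPM, and ZNRF3 at 34.2 ± 1.31 and 37.7 ± 2.58 CPM (SD, n = 4 each). In all, 4 of the 9 genes had no overlap in A101D, beside 62.3% of all genes tested, so such gaps were common in that line. With total counts as library sizes, LEF1 and ZNRF3 also had no overlap, both higher in replicates 5 to 8, and with upper-quartile factors LEF1 did.

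**Figure D3:**
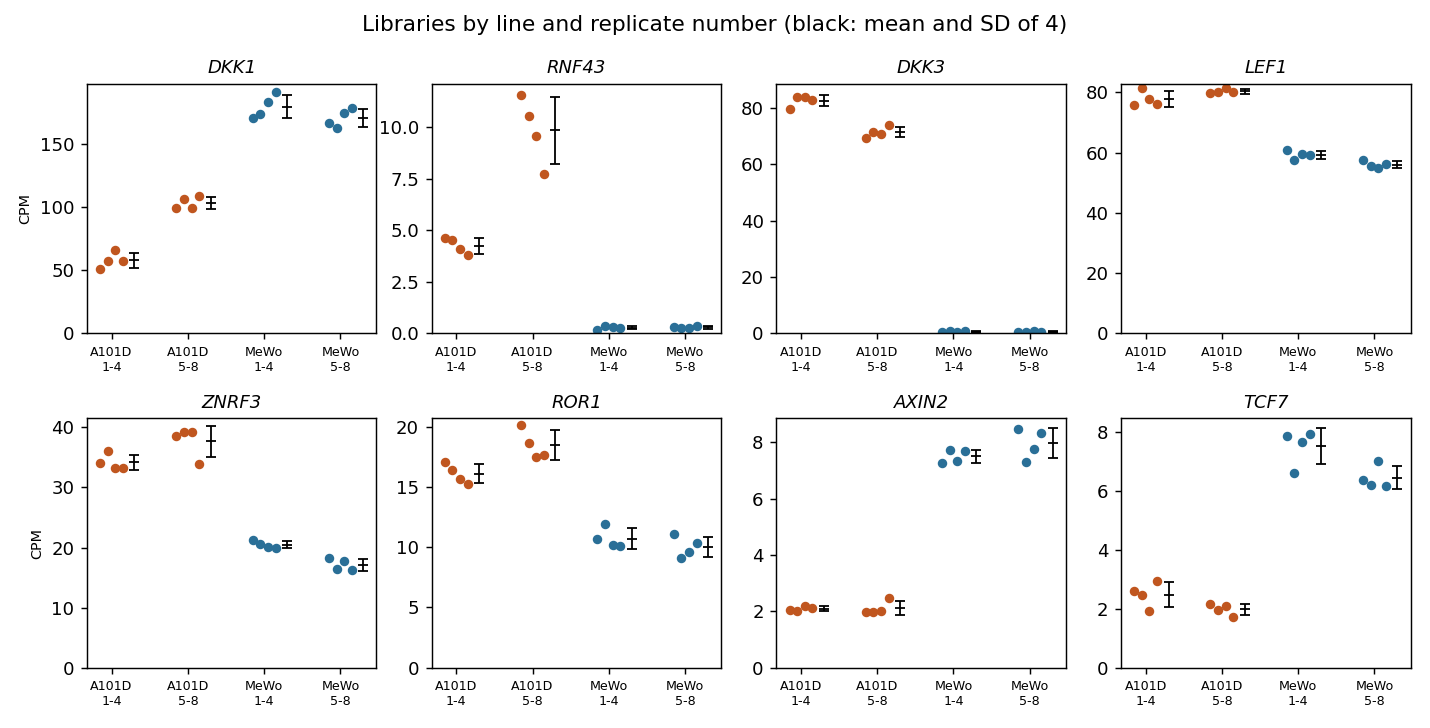
Each point is 1 library, in CPM, with the mean and SD of 4 libraries in black, for replicates 1 to 4 and 5 to 8 of each line. In A101D, DKK1 and RNF43 are higher in replicates 5 to 8, by ratios of 1.79 and 2.32, and AXIN2 is level. In MeWo, of the 8 genes drawn, only ZNRF3 and LEF1 have ranges that do not overlap. The LEF1 gap is under 1 CPM, and upper-quartile factors or total counts close it.

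In MeWo, ZNRF3 and LEF1 had ranges apart. ZNRF3 was at 21.2, 20.6, 20.1 and 19.9 CPM in replicates 1 to 4 and at 18.3, 16.4, 17.7 and 16.3 CPM in replicates 5 to 8. LEF1 was at 61.0, 57.7, 59.4 and 59.1 CPM and at 57.5, 55.5, 54.9 and 56.1 CPM, which is a gap of under 1 CPM, and with upper-quartile factors or total counts its ranges overlapped. The 2 genes of 9 stand beside 18.2% of all genes tested without overlap in MeWo. WNT5A and DKK3 stayed below 1 CPM in every MeWo library of either set.

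Across the wider pathway, 23 of the 76 tested genes were higher in A101D replicates 5 to 8 with no overlap and 26 were lower, and in MeWo 8 were higher and 13 lower. Over all 19247 genes, 5879 were higher and 6107 lower in A101D (62.3% in all), and 1695 higher and 1810 lower in MeWo (18.2% in all), so gaps of this kind were not confined to the pathway. Among the tested pathway genes, the largest ratios in A101D were those of the antagonists SOSTDC1 and FRZB. SOSTDC1 was at 1.43 ± 0.168 CPM in replicates 1 to 4 and 9.10 ± 0.614 CPM in replicates 5 to 8, and FRZB at 0.0971 ± 0.0201 and 0.591 ± 0.0559 CPM. Of the genes with too few counts to be tested, WNT2 and LGR5 had larger ratios, 30.6 and 9.28, on 63 and 58 counts in all of A101D. These genes were named after their values were seen. PRKG1-AS1, the gene that overlaps DKK1, was at 0.769 ± 0.105 and 2.95 ± 0.429 CPM, a ratio of 3.83. WNT5B had a ratio of 3.03, at 4.46 ± 0.171 CPM in replicates 1 to 4 and 13.5 ± 0.684 CPM in replicates 5 to 8. FZD4 was likewise higher in the latter, at 21.7 ± 0.857 and 36.6 ± 1.28 CPM, while LRP6 was lower, at 147 ± 3.29 and 110.0 ± 2.14 CPM (SD, n = 4 each). CTNNB1 overlapped in both lines. Markers of other cell types were low in A101D and moved with the replicate numbers: the sum of the 3 endothelial markers was 3.74 to 4.78 CPM in replicates 1 to 4 and 15.3 to 19.9 CPM in replicates 5 to 8, mostly VWF. In bulk RNA, fewer cells of a type and less RNA per cell cannot be told apart. The sum of the 3 epithelial markers lay between 0.593 and 0.921 CPM in the former and between 1.85 and 2.51 CPM in the latter, and that of the 3 blood cell markers between 0.0891 and 0.250 CPM and between 0.304 and 0.5262 CPM. KRT5, PTPRC, CD3E and CD14 were each at 0 in at least 1 A101D library. The melanocyte markers were all present, with sums between 2874 and 3449 CPM in replicates 1 to 4 and between 2517 and 2752 CPM in replicates 5 to 8. Of the 7, MITF, MLANA, DCT and S100B were lower in replicates 5 to 8 with no overlap, while SOX10, PMEL and TYR overlapped, the last pair with higher means in replicates 5 to 8 (PMEL 204 ± 19.3 and 241 ± 9.67 CPM, TYR 1.39 ± 0.227 and 1.66 ± 0.162 CPM; SD, n = 4 each). The part of these markers in the levels of DKK1 and RNF43 was not tested.

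For each gene at 1 CPM or more, the gene closest to it in profile was sought among 10132 or 10133 other genes at 10 CPM or more, by the Pearson correlation over 16 libraries of log2 CPM minus the mean of the line. DKK1 was closest to SERPINE2 (r = 0.986), RNF43 to H3C6 (r = 0.976), ZNRF3 to PFKFB3 (r = 0.927) and ROR1 to DGCR2 (r = 0.901). LEF1 was closest to CSNK1G1 (r = 0.898), WNT5A to SERPINA5 (r = 0.861), DKK3 to MGP (r = 0.841), TCF7 to CEP170B (r = 0.837) and AXIN2 to DNAL4 (r = 0.680). For DKK1 and RNF43, 1 in 100 of the genes compared reached at least 0.953 and 0.913. For AXIN2 that level was 0.452. Levels were scaled by library size and the line means were subtracted. Differences between replicates 1 to 4 and 5 to 8 were left in, and in A101D 62.3% of all genes tested had no overlap between them. Each correlation given is also the highest of many.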

How the data were processed

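Each of 2 tables, 1 per line, holds whole-number counts per gene as deposited, not normalized, with the Ensembl identifier and the count joined in 1 cell; both were separated before use. Per the submitters' processing notes, the tools were Trimmomatic 0.39-1, STAR 2.7.1a and featureCounts 2.0.0 with build GRCh38; the sources used here do not give the annotation release or the strand setting. Columns were matched to samples by line and replicate number in their headers. Symbols were found for 60357 of 60676 identifiers, and positions come from GENCODE v29, which holds 58503.

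Because the joined cells did not pass as counts in a check of units, limma 3.58.1 in R 4.3.3 was used with voom weights and robust moderation, on TMM-scaled library sizes (trims of 30% and 5%). A gene was tested if 8 or more libraries had 0.298 CPM and its counts summed to 15 or more, true of 19247 genes. The Benjamini-Hochberg adjustment ran over all of them, and tests were two-sided. The step was tried on simulated counts with few changed genes, a fixed spread and no difference between replicate sets. That does not test the case here, where 79.0% of all genes tested passed. Differences between replicates 1 to 4 and 5 to 8 are log2 ratios of mean CPM, with no test. Count ratios carry exact 95% intervals on TMM-scaled exposures.

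The 10 genes, the lists and the naming rule were chosen with earlier results of these data known. Named are the 10 genes; of each list the 2 highest and 2 lowest log2 fold changes past the threshold; CTNNB1, LRP6, WNT11 and APCDD1; and the gene closest to each in profile. LGR4 is the only tested gene of its list. TCF7L1 and TCF7L2 were named in addition, as the other TCF/LEF genes. Alternatives were 3 other scalings, 2 other filters, limma-trend, a test against a 2-fold change, an adjusted p threshold of 0.01, a replicate block and subsets of libraries. Whether equal replicate numbers pair the lines was checked: same-numbered libraries correlated at 0.052 to 0.174 in their deviations from the line means, not all above 0.1, so no pairing was assumed.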

Additional observations from a re-analysis of the deposited data

Results flagged for a closer look

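AXIN2 in A101D replicate 8 stood at 2.48 CPM, above the other libraries of that line (1.96 to 2.21 CPM), and its gap to the next library, as a share of the range, was just above Dixon's 95% critical value for 8 libraries. It was the 1 library of 16 groups of 8 that was set apart in this way, and chance alone sets apart about 1 group in 20.

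A further 4 of the 76 pathway genes tested moved opposite ways with the replicate numbers in the lines, with no overlap in either. The difference between the lines was not tested. Over all genes tested, 62.3% had no overlap in A101D and 18.2% in MeWo. The share of all genes that moved opposite ways was not counted, so the 4 are not read as particular to the pathway. Replicates 5 to 8 against 1 to 4 were higher in A101D and lower in MeWo for WLS, which carries Wnt proteins to the cell surface, with log2 differences 0.32 apart, and for TNFRSF19, a receptor gene induced by Wnt signalling, 0.34 apart. They were lower in A101D and higher in MeWo for CTNNBIP1 (A101D minus MeWo, -0.68 on the log2 scale) and for DAAM2, a formin of the polarity branch (-0.41).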

How the results depend on the processing

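Of 108 log2 fold changes of the 9 tested genes under alternatives, 104 kept their direction and their side of the threshold, and 4 kept the direction but not the call. Those 4 were ROR1, DKK1 (adjusted p 0.401), LEF1 and ZNRF3 in the limma test against a 2-fold change. In that test 5036 of all genes were called, 3 of the 10 Wnt genes were lower in MeWo in place of 6, and of the pathway genes 6 were higher and 19 lower, in place of 26 and 39; a stricter null hypothesis calls fewer genes by construction. With the replicate block, 15332 genes were called against 15202 without it, and no call of the 9 genes changed; equal replicate numbers share only a number here, and 2 of 8 libraries correlated best with their own. The MeWo genes without overlap between replicates 1 to 4 and 5 to 8 fell from 2 to 1 when libraries were scaled by upper quartiles, and also to 1 by total counts. With no filter 22492 genes were called, ROR2 among them as lower. The edgeR quasi-likelihood test and the DESeq2 Wald test, planned where the cells passed as counts, were not run. Depth limits ROR2 in both lines and WNT5A, RNF43 and DKK3 in MeWo, where a library held at most 20 counts of any of them.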
